A study of Mus musculus with 16 samples.

Results

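The comparison described here sets RAW264.7 cells taken 45 and 60 min after lipopolysaccharide (LPS) against the same cells taken 15 and 30 min after it. RAW264.7 is a virus-transformed mouse macrophage-like line, so it stands in for macrophages only as far as a dividing tumour line can. LPS from Escherichia coli was given at 100 ng/ml, and each time point has 1 library of cytoplasmic input RNA and 1 library of ribosome footprints (fragments of mRNA shielded by ribosomes from RNase I), both prepared from lysate containing cycloheximide. The comparison uses 8 of the 16 libraries of the series: 4 input and 4 footprint libraries, 2 of each per window. The libraries were chosen by their labelled times. Untreated cells at 0 min, and cells at 75 min, 90 min and 16 h of LPS, are not part of the contrast and are given only to show where a gene stood outside it. No untreated culture was taken at a later time, so time in culture and time with LPS cannot be told apart.

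LPS is sensed by Toll-like receptor 4, which signals through the kinases that free NF-kB from its inhibitors and through the MAP kinases. Genes respond in waves: immediate early genes and fast cytokines first, then genes that need more time for chromatin opening or new protein, among them the inhibitors that end the response. An mRNA yields footprints only while ribosomes are on it, so the ratio of footprints to input, called ribosome density here, follows translation separately from the amount of mRNA.

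No time point has a replicate. The 2 adjacent time points of a window stood in for replicates, and any change inside a window therefore counted as error. The p-values measure only the spread between these libraries, and the labels do not say whether they came from separate cultures. Every library was deposited with the same total, 6702930 to 6702932 counts, so the original depth is unknown. Deposited counts are printed unscaled. The scaling factors used in the tests went from 1.02 at 15 min to 0.97 at 60 min in input. In footprints they went from 1.05 to 0.96, so small differences between printed counts cannot be read directly. Genes with at least 20 counts in 2 of the 4 libraries of a material were tested. The 19 macrophage markers listed in the table summed to 37980 to 38935 input counts at 15 and 30 min and 37982 to 41198 at 45 and 60 min. The 4 fibroblast and 2 epithelial markers reached at most 1 summed count in any of the 8 libraries, and the 4 lymphocyte markers 5 to 27. The 8 osteoclast markers summed to 311 to 488.

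In input RNA, 39 of 9473 genes rose between the windows and 1 fell (edgeR quasi-likelihood test, Benjamini-Hochberg adjusted p below 0.05), which is 0.412% and 0.0106% of the genes tested. At an unadjusted p below 0.05, 699 genes (7.38%) were higher and 541 (5.71%) lower. Among the called genes with a mean count of at least 50, Pde4b, Id3, Dusp5, Fosl2, Relb, Plk3, Cflar, Rasgef1b, Chka and Itpkc had the largest changes upward. The number rested on the choice of settings. Without the filter on low counts no gene passed edgeR's test (1211 genes had an unadjusted p below 0.05, and DESeq2 called 118 filtered genes), and with robust variance moderation 68 passed, of which 20 were among the 40. The count was 97 without the 15 min library, 310 without 30 min, 372 without 45 min and 62 without 60 min.

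The input count of Pde4b, a phosphodiesterase that breaks down cyclic AMP, was 27 at 15 min, 100 at 30 min, 430 at 45 min and 724 at 60 min. The windows did not overlap, and the log2 change was 3.24 ± 0.43 (standard error of the fit; adjusted p = 0.0345, edgeR). Id3, an inhibitor of helix-loop-helix transcription factors, had 44 and 62 counts in the earlier window and 279 and 639 in the later one, a log2 change of 3.17 ± 0.40. Both genes had been near their untreated counts, 20 for Pde4b and 42 for Id3, at 15 min, and both were still high at 90 min, with 729 and 823 counts. Dusp5, a nuclear phosphatase of ERK, rose from 9 and 23 to 75 and 95 counts and Fosl2, a subunit of the AP-1 transcription factor, from 50 and 69 to 182 and 339. Dusp5 passed the filter on low counts only through the later window, where it was high. Plk3, a stress-responsive polo-like kinase, stood at 51 and 124 counts early and 354 and 364 late. Chka, the choline kinase that starts phosphatidylcholine synthesis, went from 111 and 140 to 337 and 513 counts, and Itpkc, an inositol trisphosphate kinase, from 46 and 61 to 144 and 176. In each of these 5 genes the count at 45 min lay above both earlier counts by more than the earlier pair differed.

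Rasgef1b, a guanine nucleotide exchange factor for small GTPases, had 195 and 338 input counts in the earlier window and 866 and 1021 in the later one, with a log2 change of 1.88 ± 0.22 (adjusted p = 0.0345, edgeR). It then dropped to 728 counts at 75 min. Of the 39 genes that rose, 30 were higher on average at 75 and 90 min than at 45 and 60 min, 9 stood between the windows, and none had returned to the level of 15 and 30 min. Among all 9473 genes tested, 4673 were higher at 75 and 90 min than at 45 and 60 min.

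**Figure D1:**
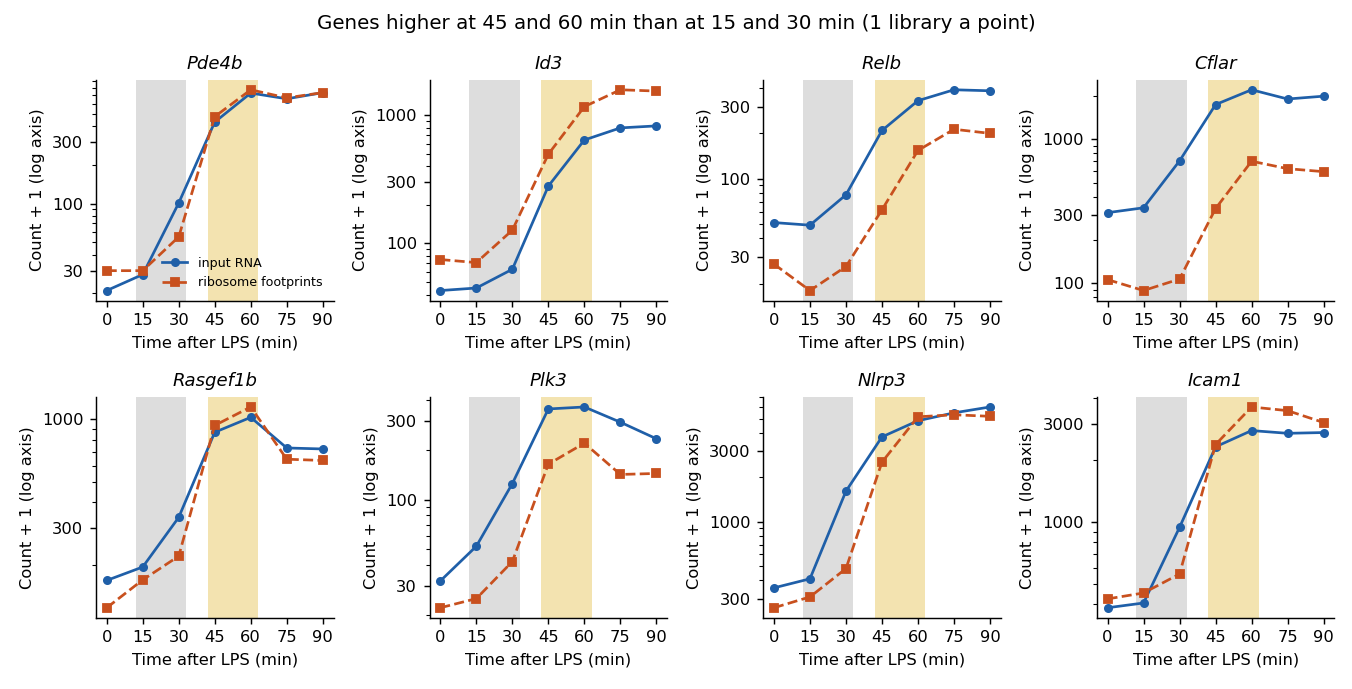
Deposited counts plus 1 (log axis) of 8 genes against minutes of LPS, input RNA as circles and footprints as squares, 1 library a point. Grey and yellow bands mark the windows compared. Rasgef1b input lies at 195 and 338 in the grey band and at 866 and 1021 in the yellow band, and Nlrp3 footprints lie at 308 and 480 against 2533 and 5144.

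Of the NF-kB family and its inhibitors, 5 of 20 tested genes rose in input and none fell (1 at an unadjusted p below 0.05, 0 by DESeq2), with a median log2 change of 0.93 against 0.00 over all genes. Among all input genes 0.412% rose. In footprints edgeR called none of the 20 (lowest adjusted p = 0.0807). There 11 were higher and 0 lower at an unadjusted p below 0.05, and DESeq2 called 6, all higher. Relb, the subunit of the non-canonical pathway, had 48 and 77 counts in the earlier window and 208 and 329 in the later one, and its log2 change was 2.16 ± 0.28 (adjusted p = 0.0345, edgeR). Nfkb2, which encodes the p100 precursor that binds RelB, rose from 226 and 262 to 504 and 820 counts. Rela, the main activating subunit, moved less, from 233 and 295 to 493 and 487, a log2 change of 0.95 ± 0.13. Tnip3, a partner of the deubiquitinase A20, rose from 263 and 287 to 589 and 857, and Tnfaip2, a gene named for its induction by TNF, was the other member called. Of the subunits, Nfkb1 and Rel did not pass (log2 changes 0.26 and 1.16), nor did the inhibitor Nfkbia.

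Among death regulators, 2 of 21 rose in input, where 0.412% of all genes did. In footprints edgeR called none of the 21 (lowest adjusted p = 0.0807). There 6 were higher and 2 lower at an unadjusted p below 0.05, and DESeq2 called 3, all higher. Cflar, which encodes an inhibitor of caspase-8, had 333 and 706 input counts early and 1737 and 2201 late (log2 change 1.98 ± 0.29, adjusted p = 0.0405, edgeR). Birc3, a ubiquitin ligase of the TNF receptor complex, rose from 417 and 579 to 1164 and 1690 counts. Among effectors of macrophage activation 2 of 19 rose in input. Ehd1, which acts in endocytic recycling, went from 260 and 336 to 683 and 1078, and Sod2, the mitochondrial superoxide dismutase, from 886 and 870 to 1229 and 1369. The log2 change was 1.62 ± 0.22 for Ehd1 and 0.62 ± 0.09 for Sod2.

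Other lists had 1 to 3 members that rose in input, where 0.412% of all genes did. Of 32 immediate early transcription factors 3 rose: Fosl2, Ets2 (128 and 160 to 302 and 515 counts) and Csrnp1 (95 and 113 to 225 and 361). Of 22 lineage factors 2 rose, Id3 and Cebpb, a C/EBP transcription factor that went from 631 and 729 to 1028 and 1111 counts. Hmgcs1, the HMG-CoA synthase of cholesterol synthesis, rose from 1188 and 1497 to 2690 and 3174 as the 1 gene called among 26 of its pathway. Sqstm1, the autophagy receptor p62, rose from 1207 and 1841 to 3250 and 4007 counts, the 1 gene called of 23 NRF2 target genes. Atf4, the transcription factor of the integrated stress response, rose from 3240 and 3484 to 4619 and 5199, 1 of 2 genes called among 32 of its list.

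The 1 gene that fell in input was Cd300lb, an activating receptor of the CD300 family on myeloid cells. It had 322 and 296 counts in the earlier window and 182 and 147 in the later one, a log2 change of -0.85 ± 0.14 (adjusted p = 0.0493, edgeR), and it no longer passed in fits lacking the 15 min or the 60 min input. Its footprints stood at 390 and 310, then 182 and 142, a log2 change of -1.04 ± 0.15 that did not pass (adjusted p = 0.0803). Gpr183, a receptor for oxysterols, was among the genes next in order of p that did not pass, with 743 and 688 input counts early and 469 and 349 late. Txnip, an inhibitor of thioredoxin that responds to glucose, had the largest negative input change among the genes named for input. It went from 2488 and 1987 to 948 and 421 input counts (log2 change -1.65 ± 0.30), and missed the threshold at an adjusted p of 0.0625 (edgeR). Its footprints went from 3922 and 3716 to 1766 and 690.

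Vmn2r90, listed as a vomeronasal receptor, was the remaining unusual call and is named because of its values. It had 0 input counts at 15 and 30 min, 30 at 45 min and 75 at 60 min, so it was at least 17.5-fold higher in the later window against a floor of 3 counts per library. It reached the count minimum in input only through the later window, where it was high, and did not reach it in footprints.

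In footprints, 14 of 9083 genes rose, 0.154% of those tested, and none fell by edgeR (at an unadjusted p below 0.05, 6.01% of genes were higher and 436 genes, 4.8%, lower, and DESeq2 called 18 down). The 10 largest changes belonged to Pde4b, Maff, Nlrp3, Clec4e, Icam1, Plk3, Rasgef1b, Insig1, Sdc4 and Ptafr. The others were Ifrd1, Cfap43, Sqstm1 and C5ar1. The count of 14 became 118 without the 15 min library, 173 without the 30 min library, 175 without the 45 min library and 26 without the 60 min library. With robust variance moderation 16 genes passed, 6 of them among the 14.

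Nlrp3, the sensor of the NLRP3 inflammasome, had 308 and 480 footprint counts at 15 and 30 min and 2533 and 5144 at 45 and 60 min (log2 change 3.36 ± 0.38, adjusted p = 0.0425, edgeR). Its input had already moved in the earlier window, 409 at 15 min and 1610 at 30 min, before 3757 and 4838, and the input change of 2.15 ± 0.50 did not pass (adjusted p = 0.119). Clec4e, the C-type lectin receptor Mincle, had footprints of 121, 201, 916 and 1767 and input counts of 116, 451, 1014 and 1398 in time order. In both genes the input count at 30 min was more than 3 times that at 15 min while the footprint count was less than 2 times higher. Icam1, an adhesion molecule for leukocytes, showed 452 and 559 footprints early and 2382 and 3625 late, a log2 change of 2.65 ± 0.23. Icam1 input went from 404 and 943 to 2321 and 2784, and just missed the threshold (adjusted p = 0.0506).

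Maff, a small Maf transcription factor that lacks an activation domain of its own, had 9 and 17 footprints in the earlier window and 134 and 125 in the later one (log2 change 3.37 ± 0.27, adjusted p = 0.0186, edgeR). It passed the filter on low counts in footprints only through the later window, where it was high. Insig1, which holds the activator of cholesterol genes in the endoplasmic reticulum, rose from 155 and 245 to 774 and 1033 footprints, the 1 gene called of 25 in the cholesterol list. Sdc4, a heparan sulphate proteoglycan, rose from 480 and 734 to 2156 and 2620, and Ptafr, the receptor for platelet-activating factor, from 69 and 63 to 184 and 256. C5ar1, the receptor for the complement fragment C5a, had 261 and 260 footprints early and 564 and 780 late. The members of the earlier pair lay close together in Ptafr and C5ar1, within 6 counts.

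Pde4b, Plk3, Rasgef1b, Sqstm1, Ifrd1 and Cfap43 rose in both materials, 15.4% of the input calls and 42.9% of the footprint calls. Pde4b footprints were 29 and 54 early and 474 and 768 late, a log2 change of 3.98 ± 0.34 (adjusted p = 0.0186, edgeR), beside 3.24 in input. Rasgef1b footprints were 169 and 220, then 934 and 1145, a log2 change of 2.49 ± 0.17. Ifrd1, a transcriptional co-regulator, had the highest input of the 6, 1453 and 2640 early and 5391 and 5723 late. Of the 39 genes that rose in input, 37 were tested in footprints, and all 37 had footprint windows that did not overlap, in the direction of a rise, against 21.1% of all footprint genes. Their median footprint change was 1.39 on the log2 scale and the median input change of the 39 was 1.45. Both materials at a given time come from 1 lysate, so the footprints are not an independent experiment.

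**Figure D2:**
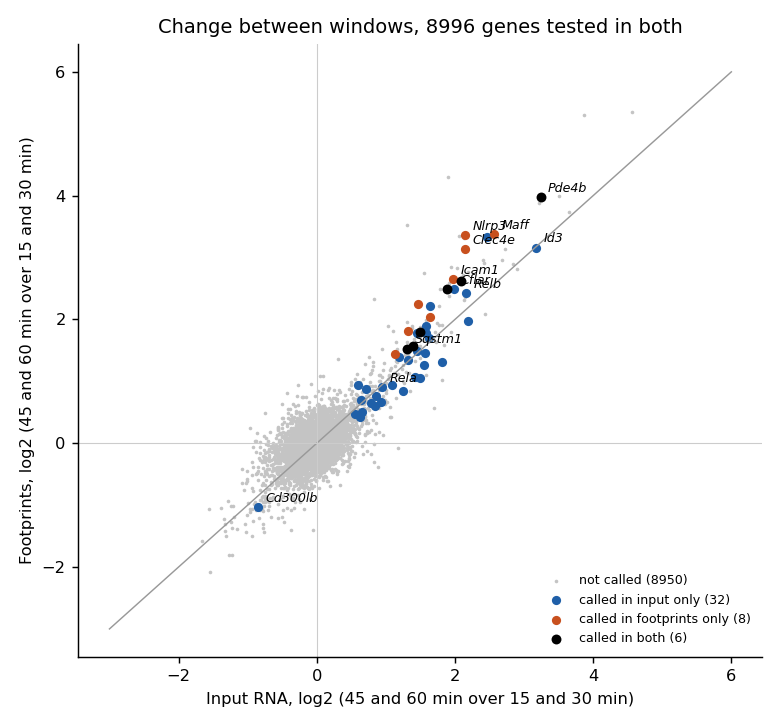
Log2 change of footprints (vertical) against log2 change of input RNA (horizontal), 45 and 60 min over 15 and 30 min, for the 8996 genes tested in both materials; the diagonal marks equal change and colours mark the genes called. The 14 genes called in footprints all lie above the diagonal, and Pde4b is farthest out among the called genes.

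All 14 genes called in footprints had a larger change there than in input, with medians of 2.37 and 1.76. The call itself selects large footprint changes. Among the 37 genes chosen by their input instead, the footprint change was larger for 20, and the median change in ribosome density was 0.02.

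Chemokines and cytokines had some of the largest changes and none passed edgeR's test, which counts movement inside a window as error. Of the 12 tested cytokines and growth factors, 5 had an unadjusted p below 0.05 in each material, all of them higher, and DESeq2 called 1 in input and 0 in footprints. All 7 tested chemokines were higher in the later window in both materials, where 50.4% of all genes in input and 49.5% in footprints were, with median log2 changes of 1.81 in input and 1.94 in footprints. All 7 had an unadjusted p below 0.05 in input and 6 in footprints, and neither edgeR nor DESeq2 called any. Cxcl10, a ligand of CXCR3, had input counts of 8, 52, 176 and 478 in time order, a log2 change of 3.50 ± 0.64 (adjusted p = 0.0625, edgeR). Cxcl2, a neutrophil attractant, had 11, 367, 1258 and 1360, so its largest step in fold fell between 15 and 30 min. Ccl4, a chemokine that attracts monocytes, had 99, 293, 649 and 1829. Il1b, the precursor of interleukin 1 beta, had input counts of 3, 33, 157 and 666 and footprints of 3, 26, 148 and 978, log2 changes of 4.57 ± 0.84 (adjusted p = 0.065) and 5.35 ± 1.13 (adjusted p = 0.149). With time fitted as a straight line in place of windows, Il1b passed in input and 405 input genes and 198 footprint genes did.

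In input, Acod1, the enzyme that makes itaconate, and Errfi1, an inhibitor of the EGF receptor, also moved inside both windows. Acod1 input counts were 18, 90, 326 and 1184 and its footprints 17, 17, 160 and 1108. Errfi1 input counts were 31, 83, 300 and 1071 and its footprints 39, 47, 206 and 871. Traf1, an adaptor of TNF receptors, had 44, 235, 956 and 1549 in input and just missed the threshold (log2 change 3.22 ± 0.53, adjusted p = 0.0524, edgeR). In Acod1 and Errfi1 the counts more than tripled from 45 to 60 min in both materials. Of the 128 input genes at least 2-fold higher in the later window, which are 1.35% of those tested, 28 were called, 123 had windows that did not overlap, and 109 were higher at 60 than at 45 min.

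A different course was seen in Tnf, Zfp36, Nfkbia and Fos, whose counts were highest at 45 min and lower at 60 min. Tnf, the cytokine TNF, had input counts of 805, 5759, 10018 and 4036 and footprints of 595, 8715, 12415 and 2615 in time order. Its windows overlapped in both materials, and the log2 changes were 1.15 ± 0.73 and 0.72 ± 1.09 (adjusted p = 0.583 and 0.868, edgeR). Zfp36, which encodes tristetraprolin, a protein that promotes decay of AU-rich mRNAs, had footprints of 421, 6890, 14058 and 3556. Nfkbia, the inhibitor IkB alpha, had footprints of 892, 7952, 12974 and 5532, and Fos, a subunit of AP-1, 144, 1318, 1701 and 288. For Tnf and Fos, the 60 min footprint count was lower than that at 30 min, and for Zfp36 and Nfkbia likewise. In all, 10 input and 13 footprint genes with a mean count of at least 50 were highest at 45 min by at least 1.5-fold over both 30 and 60 min, and none of them was called.

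**Figure D3:**
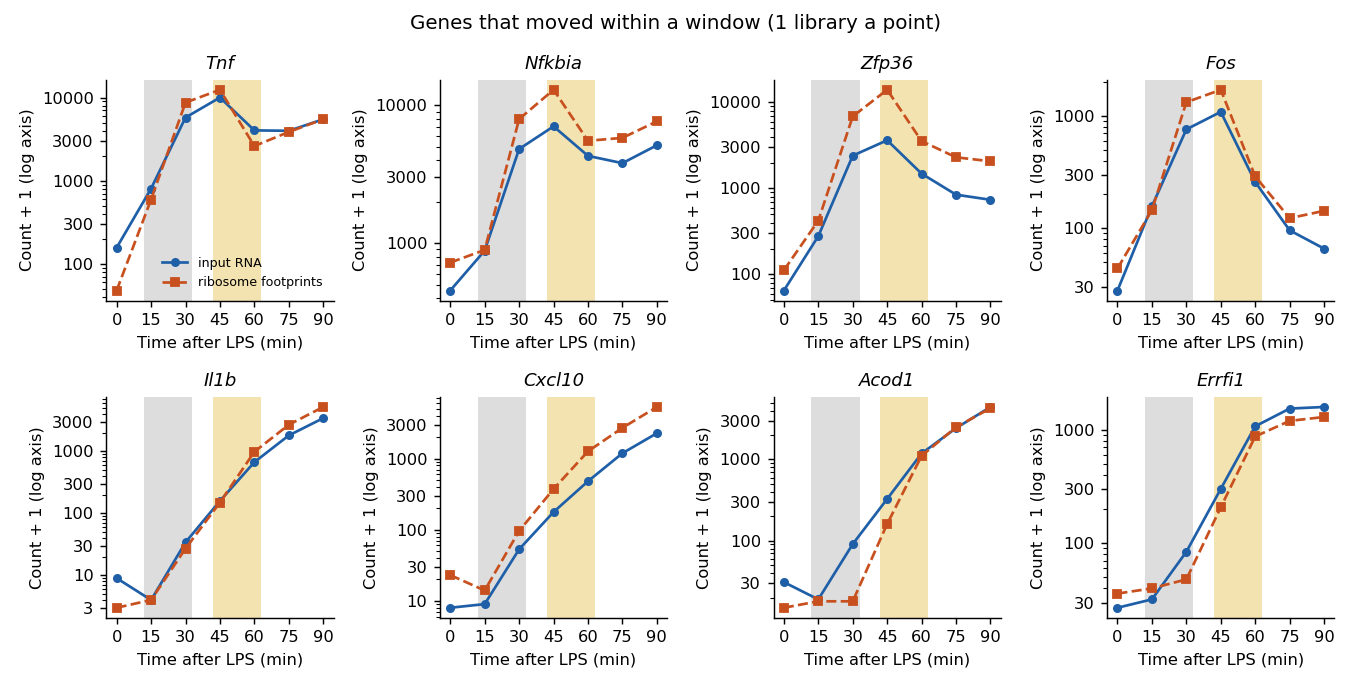
Deposited counts plus 1 (log axis) against minutes of LPS for 8 genes, input RNA as circles and footprints as squares, 1 library a point, with the windows compared as grey and yellow bands. Tnf, Nfkbia, Zfp36 and Fos are highest at 45 min, with Tnf input at 10018 and then 4036, while Il1b input climbs from 157 to 666 within the later window.

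Ribosome density rose for 3 of 8996 genes, 0.0333% of those tested, and fell for none by edgeR (at an unadjusted p below 0.05, 3.81% of genes were higher and 250 genes, 2.78%, lower, and DESeq2 called none down). The genes were Pabpc1, Nr4a1 and Btg2. Pabpc1 encodes the cytoplasmic poly(A)-binding protein, which coats mRNA tails and aids initiation, Nr4a1 an orphan nuclear receptor of the immediate early class, and Btg2 an adaptor of the CCR4-NOT deadenylase.

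Pabpc1 input counts were 9927 and 13116 in the earlier window and 8671 and 7820 in the later one, while its footprints were 5925 and 7454, then 10025 and 12196. Footprints per input, both scaled by TMM factors, were thus 0.659 and 0.656 at 15 and 30 min and 1.32 and 1.81 at 45 and 60 min. The log2 change in density was 1.23 ± 0.15 (adjusted p = 0.0121, edgeR). On their own, the input change of -0.43 ± 0.13 and the footprint change of 0.80 ± 0.16 did not pass (adjusted p = 0.204 and 0.137). Untreated cells had 8066 input and 4150 footprint counts, so the 30 min input was a high point. At 75 and 90 min input rose again to 9987 and 11271, while footprints were 11073 and 10305. Pabpc1 kept its call with DESeq2, with total-count scaling and without a filter. Without the 60 min libraries its change was 1.01 and missed the threshold, and no gene passed when the time point was left out of the model as a block.

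Nr4a1 had 28 and 487 input counts and 5 and 280 footprints in the earlier window, and 1110 and 969 input counts and 1597 and 1213 footprints in the later one. The ratio was 0.197, 0.664, 1.64 and 1.45 in time order, and the log2 change was 1.33 ± 0.19 (adjusted p = 0.0248, edgeR). The 15 min ratio rests on 5 footprint counts, and the log2 change was 2.94 without the 30 min libraries. Btg2 had input counts of 147, 986, 1416 and 810 and footprints of 98, 558, 1532 and 815, with ratios of 0.736, 0.653, 1.24 and 1.17 and a log2 change of 0.83 ± 0.12 (adjusted p = 0.0248). Nr4a1 and Btg2 both missed the threshold with total-count scaling and with no filter on low counts (adjusted p = 0.078 for each), with DESeq2 (1.00 and 0.333) and with time as a straight line (0.533 and 0.784), and Btg2 also without the 30 min libraries (adjusted p = 0.143). Leaving out the 15 min libraries gave 51 density calls and leaving out the 30 min or 45 min libraries 49 or 15.

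**Figure D4:**
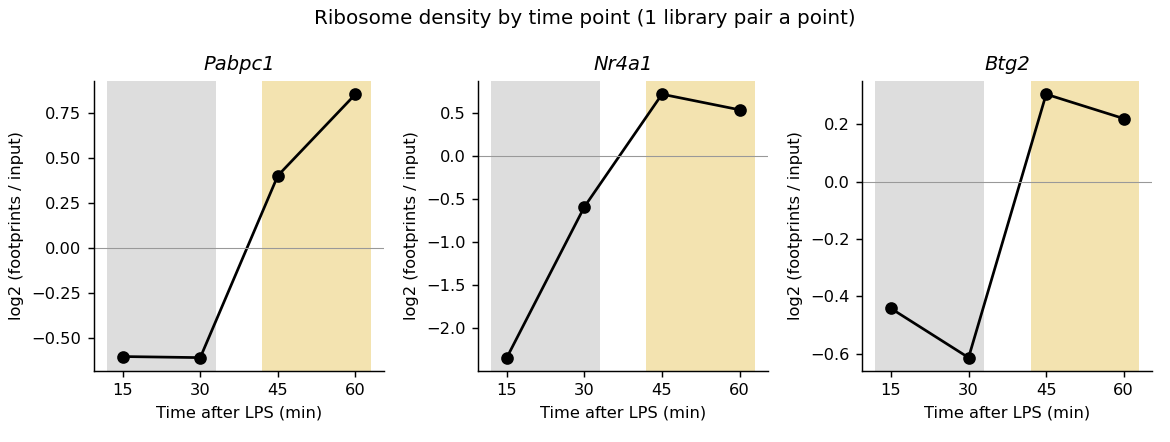
Log2 ratio of footprints to input after TMM scaling at 15, 30, 45 and 60 min for Pabpc1, Nr4a1 and Btg2, 1 pair of libraries a point, with the windows compared as grey and yellow bands. Each gene is higher at both later times than at both earlier ones. The vertical scale differs between panels.

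Next in order of p for density, and not past the test, were Tpt1, which encodes the translationally controlled tumour protein (ratios 2.04, 2.07, 3.08 and 3.38, log2 change 0.65 ± 0.12, adjusted p = 0.254, edgeR), and Cd83, a surface marker of activated antigen-presenting cells (1.03, 0.709, 1.37 and 1.29; adjusted p = 0.264). Zc3h12a, the RNase regnase 1, had input counts of 38, 146, 202 and 317 and footprints of 33, 76, 236 and 460 (log2 change in density 1.14 ± 0.24, adjusted p = 0.264). On the lower side, Homer1 and Zfp397 had log2 density changes of -1.29 ± 0.29 and -1.32 ± 0.31 from at most 73 footprint counts per library, and neither passed (adjusted p = 0.403 and 0.416).

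Pabpc1 and Tpt1 belong to the TOP mRNAs, which begin with a run of pyrimidines and whose translation responds to mTOR. In the list of 27 TOP mRNAs other than ribosomal protein genes, 1 gene, Pabpc1, passed for density and the median change was 0.15. Of 73 ribosomal protein genes tested for density none passed in either direction (edgeR; 3 higher and 0 lower at an unadjusted p below 0.05, 0 by DESeq2), with a median of 0.18 and 70 above 0, where 51% of all genes were above 0. That median rested on the 15 min libraries. The median ratio of these genes, centred on each gene's mean over the 4 times, was -0.31 at 15 min, 0.14 at 30 min, 0.07 at 45 min and 0.12 at 60 min on the log2 scale, and the median change was -0.05 without the 15 min libraries and 0.39 without the 30 min libraries, where 16 genes passed. Their footprints alone had a median log2 change of 0.19, with 0 of 75 called by edgeR or DESeq2, 9 higher at an unadjusted p below 0.05, and 45 with windows that did not overlap. Rpl15 footprints were 7813 and 7865 early and 8971 and 9539 late, and Eef2, an elongation factor of the TOP list, had 20455, 25005, 28012 and 28369.

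**Figure D5:**
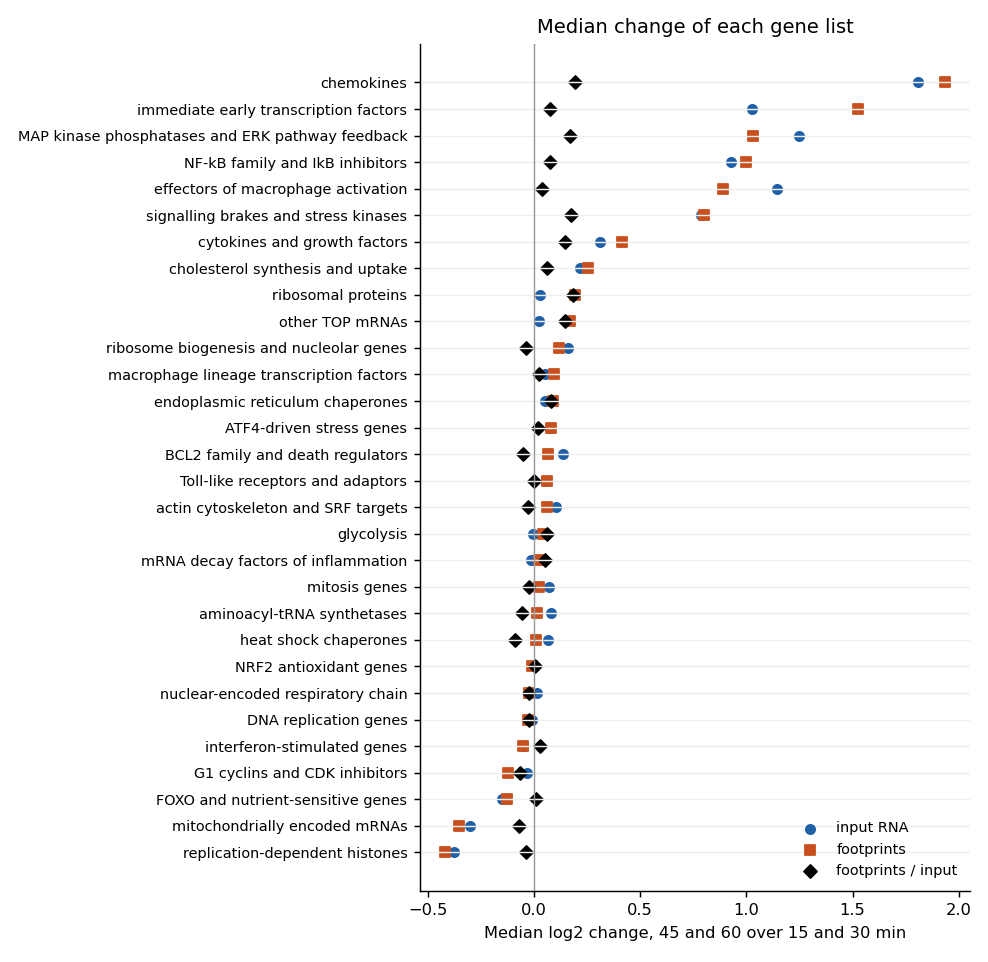
Median log2 change between the windows of the tested members of each gene list (horizontal axis) for input RNA, footprints and their ratio. Chemokines have the highest medians, 1.81 and 1.94, histones the lowest, -0.38 and -0.42, and the density medians lie between -0.09 and 0.20.

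At the other end of the lists, mRNAs of the replication-dependent histones, which are made in S phase and end in a stem-loop in place of a poly(A) tail, had median log2 changes of -0.38 in input and -0.42 in footprints. No histone gene passed edgeR's test among 55 in either material, 37 were lower at an unadjusted p below 0.05 in input and 40 in footprints, and DESeq2 called 2 and 9. The windows did not overlap, in the lower direction, for 42 histone genes in input and 50 in footprints, against 21.4% and 21.6% of all genes. Hist2h4 input counts were 1659, 1225, 870 and 972, and Hist1h1d footprints were 10661, 8585, 5868 and 5840, so the decline was already under way between 15 and 30 min. The input median was -0.15 without the 15 min library and -0.56 without the 30 min library, where 32 genes passed as lower. Copies of histone genes are near identical in sequence, and the counting of reads with several matches is not stated in any source used here. Other lists of the cell cycle lay near 0: 42 mitosis genes had medians of 0.07 and 0.02, and 39 DNA replication genes -0.01 and -0.03, with none called by edgeR (mitosis 4 and 7 higher at an unadjusted p below 0.05 and 0 lower; replication 3 and 3 higher, 1 and 3 lower; DESeq2 called 0 and 2 mitosis genes and 0 and 1 replication genes, all higher).

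The 13 mitochondrially encoded mRNAs had median log2 changes of -0.30 in input and -0.35 in footprints and none passed (edgeR; 8 and 3 lower at an unadjusted p below 0.05, DESeq2 3 and 0). Their courses were not steady. The input counts of mt-Nd2, a subunit of complex I, were 6385, 8321, 4967 and 5423, after 4836 in untreated cells, so the 30 min library was the high point, and mt-Cytb, a subunit of complex III, had 13620, 17542, 11349 and 11554. Without the 30 min libraries the medians were -0.17 in input and -0.07 in footprints, and without the 15 min libraries they were -0.43 and -0.57, with 6 and 5 genes called lower. The 75 nuclear-encoded genes of the respiratory chain had medians of 0.01 and -0.02, and none was called (edgeR; 0 in input and 1 lower in footprints at an unadjusted p below 0.05, 0 by DESeq2).

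Several lists of regulators held a few large values and few calls. The list of 19 signalling brakes and stress kinases also holds the inflammasome sensor gene Nlrp3. From this list Pde4b and Plk3 rose in input and Pde4b, Plk3 and Nlrp3 in footprints. Among all genes 0.412% rose in input and 0.154% in footprints. Of 19 MAP kinase phosphatases and ERK feedback genes Dusp5 alone rose, in input; the ERK and p38 phosphatase gene Dusp1 had 38, 357, 601 and 406 input counts, and Dusp16 58, 77, 132 and 433, and neither passed (adjusted p = 0.415 and 0.122, edgeR). No gene of 27 Toll-like receptors and adaptors passed (edgeR; 4 higher and 2 lower in input and 3 and 3 in footprints at an unadjusted p below 0.05, DESeq2 1 and 3 higher). Tlr2, the receptor for bacterial lipoproteins, came close, with 1970, 3117, 5071 and 7678 input counts (log2 change 1.38 ± 0.24, adjusted p = 0.0586), and Cd14, the co-receptor that hands LPS to Toll-like receptor 4, had 3353, 3844, 4880 and 7100.

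Housekeeping lists had small median changes, though some of their members moved more. Of 40 ribosome biogenesis genes, 26 had input windows that did not overlap, in the direction of a rise, against 22.3% of all genes, and the median log2 change was 0.16. None was called (edgeR; 13 higher and 0 lower at an unadjusted p below 0.05, DESeq2 1 higher). Nop58, a core protein of box C/D snoRNPs, had 2906, 3337, 4137 and 4741 input counts. Among 26 actin and SRF target genes none was called in either material (edgeR; 8 and 5 higher at an unadjusted p below 0.05, 0 lower, DESeq2 2 and 2 higher). Actg1, the cytoplasmic gamma actin, had 10421, 16277, 32979 and 40027 footprints (log2 change 1.52 ± 0.23, adjusted p = 0.0807). Herpud1, a component of endoplasmic reticulum-associated degradation, had 490, 602, 1175 and 1538 footprints and an adjusted p of 0.051 as the nearest to the threshold among 23 genes of its list.

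Interferon-stimulated genes, which in macrophages answer to interferon made in a later wave, had medians of -0.05 in both materials and none of 38 was called (edgeR; 2 higher and 3 lower in input and 2 higher and 1 lower in footprints at an unadjusted p below 0.05, 0 by DESeq2). Oasl1, an oligoadenylate synthetase-like gene, was the exception in size, with input counts of 132, 155, 249 and 528 (2.82-fold, adjusted p = 0.0975, edgeR). Stat2, a subunit of the interferon-activated factor, stood at 117, 104, 78 and 65 in input and at 1102 counts at 16 h. The medians of 24 and 23 glycolytic genes were 0.00 and 0.04, with none called (edgeR; 2 higher and 1 lower in each material at an unadjusted p below 0.05, DESeq2 0 and 1). Gapdh had 2152, 2144, 1975 and 1844 input counts, and Actb, often used as a reference with Gapdh, had 23633, 25853, 30166 and 31910 (log2 change 0.38 ± 0.08, adjusted p = 0.0834).

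The promoters of the called genes were searched for 5 motifs in the 250 bases upstream of the start given by RefSeq (build GRCm38.p6), on both strands. Of the 39 genes that rose in input, 35 matched the table by symbol. The NF-kB motif, 10 bases long as capitalised in the first lines below, was present for 1 of the 35, Nfkb2, which is 2.86%, for 0.451% of the 7312 matched genes tested in input and for 0.414% of all 27025 genes. Nfkb2 has several listed starts, and the match lies upstream of only 1 of them. By starts the motif was present for 1 of 44 (2.27%), against 0.363% of the starts of genes tested in input. The CREB/ATF motif TGACGTCA was held by 2.86% of the called genes, 3.34% of the tested genes and 1.77% of all genes. The AP-1 motif TGANTCA was held by 5.71%, 4.8% and 7.82% in the same order, the SRF motif (CArG box) by 5.71%, 1.41% and 1.58%, and the interferon response motif by 2.86%, 3.09% and 3.46%. No overlap between motifs was removed, and these shares rest on 1 or 2 genes each. Each motif was searched in 1 fixed form, so other forms and sites farther away were not counted. A gene without a match may still hold a site. The stretches below show the matches of Nfkb2 and Dusp5, called in input, of Btg2, called for density, and, for comparison, of Cxcl2 and Nfkbia, which were not called. Capitals mark the match, the sequence is written 5′ to 3′ on the strand of the gene, and a match says nothing about binding.
Nfkb2, NF-kB motif, 225 bases upstream, chr19:46305680-46305739, plus strand: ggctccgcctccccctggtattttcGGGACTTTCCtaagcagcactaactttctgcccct
Cxcl2, NF-kB motif, 97 bases upstream, chr5:90903777-90903836, plus strand: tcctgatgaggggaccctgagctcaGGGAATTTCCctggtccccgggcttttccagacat
Nfkbia, NF-kB motif, 29 bases upstream, chr12:55492648-55492701, minus strand: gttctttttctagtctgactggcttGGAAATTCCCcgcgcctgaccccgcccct
Btg2, CREB/ATF motif, 166 bases upstream, chr1:134079289-134079346, minus strand: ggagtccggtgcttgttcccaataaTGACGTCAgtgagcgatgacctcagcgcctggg
Dusp5, SRF motif, 82 bases upstream, chr19:53529038-53529097, plus strand: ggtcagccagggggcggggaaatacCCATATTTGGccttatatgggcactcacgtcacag
In Dusp5 a second match, in lower case here, follows the first directly, 72 bases upstream of the start.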

How the data were processed

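Input RNA and footprints were size-selected to 25 to 35 nt, per the labels' protocols. The deposited table holds raw counts per gene, 1 column per library, and the submitters' processing notes name Bowtie 0.12.8, DESeq2 1.18.1 and mm10. How reads were counted (tool, annotation, strand, multiple matches) was not given in the sources used here. Every deposited column sums to 6702930 to 6702932 counts, and the step that made the totals equal is not stated. The authors' normalised signal columns equal the counts divided by 1 factor per library (largest relative spread 9.9e-15) and were used for that check alone.

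Windows were compared with edgeR 4.0.16 (R 4.3.3), TMM scaling, quasi-likelihood F-tests and Benjamini-Hochberg adjustment at 0.05: 4 libraries and 2 residual degrees of freedom per material, and 8 libraries with time point as a block for density (interaction of material and window, 2 residual degrees of freedom). Genes needed at least 20 counts in 2 of 4 libraries, in both materials for density. Standard errors are the log2 change divided by the root of F. DESeq2 1.42.0, other scalings, filters and left-out libraries were alternatives. On simulated counts with known changes, a 2-fold change was recovered for 83% of 100 genes in input, 77% in footprints and 76% in density, and of all calls 8.54%, 10.2% and 1.7% were of unchanged genes. The simulated libraries of a window shared 1 mean, without the change inside a window that the data hold. In the data, 28 of 128 input genes and 14 of 133 footprint genes at least 2-fold higher were called. The simulated shares therefore do not say how many real changes were missed.

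Named genes were, per comparison, the 10 largest called changes in each direction with a mean count of at least 50 and windows that did not overlap (filled to 5 by p), up to 4 members of each gene list, and Tnf, Nfkbia, Zfp36, Il1b, Cxcl2, Fos, Dusp1, Actb and Gapdh. Members and lists were chosen with earlier results of these data known. The labels give no replicate numbers, so libraries were paired by time point alone, in the density fit. Some items are not reported here.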

Additional observations from a re-analysis of the deposited data

Results flagged for a closer look

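For 3 genes the change between the windows differed between footprints and input by a test of the difference itself (edgeR's interaction of material and window). The log2 difference was 1.33 for Nr4a1, 1.23 for Pabpc1 and 0.83 for Btg2. In Pabpc1 the materials moved in opposite directions, input from 9927 and 13116 to 8671 and 7820 counts and footprints from 5925 and 7454 to 10025 and 12196. Neither of these changes passed on its own, and untreated input was 8066. In Nr4a1 and Btg2 both materials were higher on average in the later window, footprints more than input. Nr4a1 had 28 input and 5 footprint counts at 15 min, and its difference was 1.22 without that time and 2.94 without 30 min.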

How the results depend on the processing

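The count of 40 input genes became 118 with DESeq2, 0 with no filter on low counts, 405 with a linear term in minutes, 90 with 75 and 90 min as a further window, 68 with robust moderation, and 62 to 372 when 1 library was left out. The 14 footprint genes became 23 with total-count scaling, 111 with DESeq2, 25 with no filter, 198 with the linear term, 79 with the further window, and 26 to 175 with 1 library left out. The 3 density genes became 1 with total-count scaling, 1 with DESeq2, 1 with no filter, 1 with the linear term, 0 without the time-point block (311 genes at an unadjusted p below 0.05), and 3 to 51 with 1 time point left out. A window left with 1 library is assumed to vary like the other window. The cause of these shifts was not tested. No named call changed direction in any alternative that could be fitted. The largest named calls were chosen to have windows that do not overlap. Their direction was thus largely fixed in advance, and this result adds no support. Of 23 named input calls, 8 kept an adjusted p below 0.05 with robust moderation and 0 with no filter, and of 11 named footprint calls 4 and 11. Total-count scaling moved the median of all genes by -0.06 in input and -0.08 in footprints. With 2 residual degrees of freedom, and equal deposited totals, neither biological variation nor original depth could be estimated.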

Other observations

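In 72 input genes with a mean count of at least 50 the input at 30 min was at least 2-fold that at 15 min. Of these, 70 were tested in both materials and had footprints in all 4 libraries. The median rise of the 70 was 3.90-fold in input and 2.68-fold in footprints. The ratio of footprints to input at 30 min was below that at 15 min in 45 of the 70, below that at 45 min in 66, and below those at both 45 and 60 min in 57. It was below that at 45 min in 50.4% of the other 8926 genes tested in both materials. The median log2 ratio of the 70 was 0.16 at 15 min, -0.14 at 30 min, 0.39 at 45 min and 0.37 at 60 min, and over all 8996 genes it lay between -0.02 and 0.02. The set was defined after the values were seen, and the input library at 30 min both chose the genes and is the denominator of the ratio, so no test is given.

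Acod1 was the widest case among the macrophage effectors: its input rose from 18 to 90 counts while its footprints were 17 at both times. Ptafr input doubled from 90 to 180 counts beside footprints of 69 and 63, and Slc20a1, a phosphate transporter, had footprints that were 0.995 times as high at 30 as at 15 min beside a 2.08-fold rise in input. Genes in the set could also run the other way: Cxcl2 input rose 33.6-fold and its footprints 168-fold, from 3 counts, and Tnf input rose 7.21-fold and its footprints 15.2-fold.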
